A study of Homo sapiens with 12 samples.

Results

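The later response of HK-2 cells to the compound that the labels call Aa was measured by comparing 3 arrays of cells exposed to a high dose of Aa for 48 h with 3 arrays of cells exposed to its vehicle for 48 h. These are 6 of the 12 arrays of the study, chosen by treatment and time in the sample titles, and 11184 of the 19775 genes named on the array were bright enough to be tested. HK-2 is an immortalised human line that derives from the epithelium of the renal proximal tubule. The study recorded expression in these cells after several compounds, doses and times, to look for patterns that mark toxicity. The other 6 arrays hold cells given the same treatments for 24 h, which have controls of their own. All groups were grown in DMEM mixed with Ham's F12 and supplemented with EGF, hydrocortisone, insulin, transferrin and selenite, plated 24 h before treatment and exposed close to confluence. Each group had 3 samples that the labels call biological replicates, numbered 1 to 3. The sources used here do not give the dose or chemical identity of Aa, nor what same-numbered samples share. All samples come from 1 line, so the p-values below measure the spread between these cultures and not between people.

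Cells under stress switch on immediate early genes such as FOS, JUN and ATF3 within minutes to hours, and their products bind the promoters of later genes. Long genes take RNA polymerase II far longer to copy than short ones, and immediate early and histone genes are among the shortest. In the proximal tubule, injury is known to lower the transporters of the mature cell and to raise genes of repair such as SOX9 and HB-EGF.

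Values are log2 expression on the authors' GCRMA scale, 1 unit being a 2-fold step, with a floor of log2 4 below which a value was taken as background. Array values are listed for replicates 1 to 3, controls first. A gene is said to have risen or fallen where its Benjamini-Hochberg adjusted p by limma was under 0.05. Arrays of 1 group at 48 h correlated at 0.994 to 0.996 and Aa arrays with control arrays at 0.949 to 0.965. The cells kept epithelial markers, with 5 of 5 general epithelial markers over the floor on all 6 arrays, but only 6 of 30 proximal tubule markers were over it on all 3 control arrays. No leukocyte marker of 7 was over it on all 3 arrays of either group, and their summed level was 5.12 to 5.15 in controls and 5.14 to 5.58 in Aa (log2). Of 9 fibroblast markers 3 were over the floor in both groups, and their summed level was 12.19 to 12.45 in controls and 12.03 to 12.25 in Aa (log2). For 9 endothelial markers the sum was 6.31 to 6.37 in controls and 6.35 to 6.43 in Aa, and for 10 distal nephron and podocyte markers 9.71 to 9.87 and 10.01 to 10.09. Fewer cells of a type and less RNA per cell cannot be told apart in such bulk samples.

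Technical readouts moved with the groups. The excess of 3' over 5' signal of the ACTB and GAPDH control probe sets, a measure of RNA integrity, was 0.51, 0.68 and 0.43 (log2) on the Aa arrays and 0.30, 0.42 and 0.23 on the control arrays. The added poly-A control transcripts read 9.46, 9.64 and 9.54 on the Aa arrays and 8.56, 8.98 and 8.58 on the control arrays, and the hybridisation controls 11.29, 11.58 and 11.34 against 10.87, 11 and 11.02. Their part in the results below was not tested. GCRMA values are set to nearly the same distribution on every array. Scaling the arrays to the hybridisation controls instead lowers every log2 change by 0.44, and scaling them to the poly-A controls by 0.84. All changes are therefore given relative to the other genes on the array, whose median change was -0.03. Of the genes called at 48 h 48.1% had risen, against 24.8% with the hybridisation-control scaling and 13.5% with the poly-A-control scaling. Of 34 gene lists with a positive median change, 25 had a negative one with the first scaling and 29 with the second. The AP-1 list, the EGR, NR4A and IER list and the histone list described below were positive under both. The NF-kB list was positive by only 0.05 with the poly-A-control scaling. Its 12 members over the floor on all controls had a median of 0.69 on the deposited scale, less than the 0.84 that this scaling takes off. The GADD45 list was positive with the poly-A-control scaling only through a gene under the floor in controls.

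At 48 h the larger share of the measured transcriptome differed between Aa and vehicle: 8193 of 11184 genes passed the test (73.3%), 3944 upward (35.3%) and 4249 downward (38.0%). At least 2-fold rises were called for 1637 genes (14.6%) and at least 2-fold falls for 1942 (17.4%). Of these 3579 genes, 3576 moved the same way in all 3 numbered pairs and in 3550 the Aa and control values did not overlap. Over all genes, Aa lay above control without overlap in 3691 (33.0%) and below it in 4037 (36.1%). Counts in the gene lists below are to be read against 35.3% risen and 38.0% fallen. Changes of at least log2 3 were called for 230 rises and 287 falls. The median size of a change was 0.61 (log2) at 48 h and 0.43 at 24 h, with a median SE of 0.113 at 48 h. Among the 2-fold genes with at least 2 probe sets over the filter, all probe sets went the same way in 1499 of 1673 (89.6%).

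The 10 largest rises measured with every array over the floor ran from 19.2-fold to 117-fold and came from genes of different kinds. ATF3, a stress-induced factor of the ATF family, read 5.73, 4.55 and 5.78 in the controls and 12.09, 11.98 and 12.60 in Aa, a rise of 117-fold (log2 change 6.87, SE 0.272, adjusted p = 1.65e-07). Every Aa value lay more than 6 log2 units above the highest control. HBEGF, which encodes a ligand of the EGF receptor, read 5.07, 6.09 and 6.75 in the controls and 11.69, 11.73 and 11.98 in Aa, a rise of 56.8-fold (log2 change 5.83, SE 0.300, adjusted p = 5.36e-07). The controls of HBEGF spread more than its Aa arrays, and the groups did not overlap. RNA45SN5, one of the repeated copies of the 45S ribosomal RNA precursor, which a probe set cannot tell from the other copies, read 6.80, 7.13 and 7.23 and 12.22, 11.78 and 12.32, a rise of 33.2-fold (log2 change 5.05, SE 0.220, adjusted p = 2.57e-07). ADM, the gene of the vasodilator peptide adrenomedullin, read 5.92, 5.91 and 6.84 and 10.91, 11.20 and 11.39, a rise of 30.8-fold (log2 change 4.95, SE 0.228, adjusted p = 3.27e-07). Both genes stood apart from their controls on all 3 Aa arrays.

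The other 6 of the 10 largest measured rises were GCNA, a gene of germ cells (60.8-fold), the leukocyte adaptor gene LAT2 (36.8-fold), the cell cycle co-regulator SERTAD1 (26-fold), the homeobox gene MSX1 (23.9-fold), the transcribed pseudogene PPP4R1L (20.4-fold) and C6orf141 (19.2-fold). GCNA, LAT2 and PPP4R1L were already high at 24 h, with log2 changes of 6.19, 4.91 and 4.24 then and 5.93, 5.20 and 4.35 at 48 h. The difference between the times did not pass for these 3 (adjusted p by limma 0.596, 0.359 and 0.662). It passed for the other 7, all of them further from control at 48 h.

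The 10 largest measured falls ran from 19.4-fold to 40.1-fold, and 7 of these genes belong to the longest 10% of genes by span, the length from start to end in RefSeq. LRBA, which encodes a large protein of vesicle trafficking and spans 751 kb, read 10.57, 11.09 and 10.60 in controls and 6.64, 5.31 and 4.32 in Aa (log2 change -5.33, SE 0.437, adjusted p = 6.16e-06). BABAM2, a subunit of the BRCA1-A complex spanning 450.2 kb, read 10.04, 10.20 and 9.94 and 6.13, 4.71 and 4.26, a fall of 32.5-fold (log2 change -5.03, SE 0.404, adjusted p = 5.42e-06). UTRN, the gene of utrophin, a relative of dystrophin, read 10.38, 10.51 and 9.87 and 6.85, 5.68 and 4.75 over a span of 568 kb, a fall of 22.6-fold. In these 3 genes the control arrays lay within 1 unit of each other while the Aa arrays spread more widely. The SD over the 10 falls was 0.131 to 0.423 in controls and 0.674 to 1.67 in Aa, and in LRBA, BABAM2 and UTRN Aa replicate 1 was the highest.

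The remaining falls were CCDC91 of Golgi transport (25.4-fold, 359.7 kb), the adenosine kinase gene ADK (22.4-fold, 558 kb), NBAS of Golgi-to-ER transport (20.9-fold, 782 kb) and the glypican gene GPC6 (19.4-fold, 1191 kb). SGPP2, a phosphatase of sphingosine 1-phosphate, fell 20.4-fold over 139 kb. TMEM37, a membrane protein gene of 8.61 kb, and the methyltransferase gene TMT1B of 2.88 kb fell 25.9-fold and 19.7-fold and are short.

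**Figure D1:**
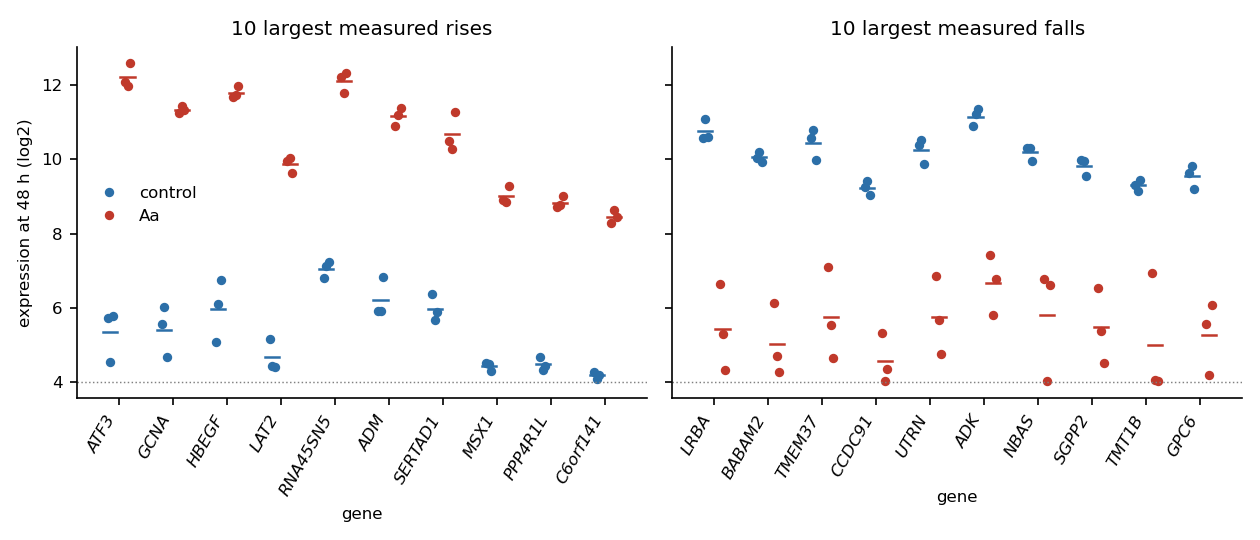
Expression at 48 h (log2, vertical axis) of the 10 largest measured rises (left) and falls (right); points are the 3 control arrays (blue) and 3 Aa arrays (red), short lines are group means, and the dotted line is the floor of log2 4. No gene shows overlap, and the Aa arrays scatter more among the falls (SD 0.674 to 1.67) than among the rises (SD 0.0954 to 0.533).

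Genes with values under the floor have only a bound on their change, computed with each such value raised to the floor. All 3 controls were under the floor and all 3 Aa arrays over it in 249 genes, and the reverse held in 214. SHISA2, a membrane protein gene, was under the floor in controls and read 10.57, 10.36 and 10.70 in Aa, at least 93.3-fold higher. AOC3, an amine oxidase gene, read 10.11, 10.12 and 10.57 in Aa and was at least 76.9-fold higher, with LSMEM1 at least 69.5-fold, the cyclin kinase inhibitor CDKN2B at least 49.2-fold, the lipase gene CEL at least 43.9-fold and the aldehyde dehydrogenase gene ALDH8A1 at least 39.4-fold higher. These 6 genes span 6.41 kb to 32.7 kb. Genes that went under the floor in Aa were mostly long: GPHN, which encodes the receptor scaffold gephyrin, read 9.77, 9.37 and 8.62 in controls and was at least 38.1-fold lower over 1227 kb. The exocyst gene EXOC4 (848 kb) was at least 36.3-fold lower, SLC44A5 (522 kb) at least 33-fold, the kinase gene PRKCB (385 kb) at least 31.5-fold and the oxidoreductase gene WWOX (1113 kb) at least 25-fold. The exception among the 6 was the keratin gene KRT20, at least 25-fold lower with a span of 9.35 kb. The genes lost to background had a median span of 245 kb and those gained 14.3 kb, against 29.7 kb for all tested genes.

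Over the whole array, falls were most frequent among the genes of longest span. Among the 10% of genes with the longest span, from 149 kb to 2299 kb, 85.8% fell and 4.47% rose, and 66.1% fell at least 2-fold. The median log2 change went from 0.11 in the shortest of 10 equal bins to a highest value of 0.26 in the third, and then to -0.05 in the seventh, -0.46 in the ninth and -1.50 in the longest. At 24 h the median of the longest bin was -0.93. Spearman's rho between span and change was -0.366 across 11176 genes, which are not independent replicates. The contrast was present at each level of expression: for genes with a control mean between log2 4 and 8, 8 and 10, or above 10, the longest bin had medians of -1.62, -1.68 and -1.31 and the shortest 0.08, 0.13 and 0.01. Scaling to the control transcripts shifts all bins alike.

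The 4 largest changes among the 10% of genes with the highest control level were all falls of long genes. PTPRK, a receptor phosphatase gene of 552 kb, read 11.88, 11.92 and 11.55 in controls and 8.66, 7.79 and 6.60 in Aa, a fall of 17.1-fold (log2 change -4.10, SE 0.318, adjusted p = 4.51e-06). EXT1, an enzyme of heparan sulphate synthesis spanning 317 kb, fell 11.8-fold, the exchange factor gene VAV3 (394 kb) 8.88-fold and the ephrin gene EFNA5 (294 kb) 8.74-fold. Among the 10 receptor tyrosine phosphatases tested, which span a median of 227 kb, 8 fell and 1 rose, with a median of -1.82. PTPRG was at least 41.3-fold and PTPRM at least 17.8-fold lower, and PTPRH was at least 16.1-fold higher. The longest bin held 38.1% of all genes that fell at least 2-fold and 0.917% of those that rose at least 2-fold.

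**Figure D2:**
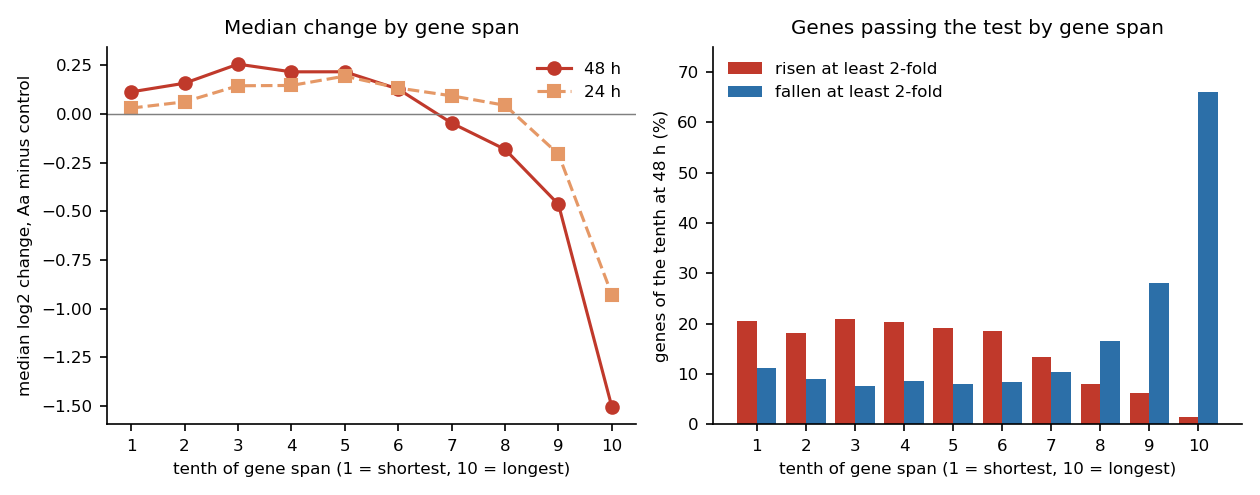
Left, median log2 change (Aa minus control, vertical axis) of the genes in each of 10 equal bins of gene span at 48 h (circles) and 24 h (squares); right, percent of each bin that rose or fell at least 2-fold at 48 h. The shares of falls go from 11.1% in the shortest bin to 66.1% in the longest, and the shares of rises from 20.6% to 1.34%.

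Transcription factors of the immediate early response stood high at 48 h. Of 10 tested AP-1 genes, the FOS, JUN and MAF proteins that bind DNA in pairs, 8 rose and 1 fell, with a median of 2.26 at 48 h and 0.48 at 24 h. Of the 8 that were over the floor on all controls, 6 rose and 1 fell, against 33.5% and 39.5% of all such genes. FOS read 4.59, 4.50 and 4.72 in controls and 8.91, 8.30 and 9.19 in Aa, a rise of 18.3-fold (log2 change 4.19, SE 0.239, adjusted p = 8.78e-07). At 24 h it read 4.54, 4.72 and 4.88 in controls and 5.20, 5.09 and 4.51 in Aa. FOSB was under the floor in controls, read 7.57, 7.11 and 7.72 in Aa and was at least 11.1-fold higher. At 24 h the FOS groups overlapped and FOSB was under the floor on all arrays. FOSL1 was at least 10.4-fold higher, and MAFF rose 6.03-fold, JUN 6.05-fold, MAFG 3.79-fold and JUNB 2.39-fold, while JUND fell 1.43-fold, a call that is lost without replicate 1 (adjusted p by limma 0.0537).

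Of 10 EGR, NR4A and IER genes on the array 7 were tested, of which 6 rose and 0 fell by limma, 0 also at an unadjusted p under 0.05 (median 1.74). Of the 6 over the floor on all controls, 5 rose and 0 fell, against 33.5% and 39.5% of all such genes. NR4A2 passed the filter without being over the floor on all controls. With poly-A-control scaling 5 of the 7 rose and 2 fell. The orphan receptors NR4A2 and NR4A1 rose at least 12.5-fold and 6.53-fold, IER5 8.67-fold, IER3 3.35-fold and IER2 3.02-fold. EGR1, the zinc finger factor of the growth response, did not pass at 48 h (log2 change 0.25, adjusted p = 0.363; a passing fall of -0.60 with poly-A-control scaling, adjusted p = 0.0236), although it was lower at 24 h (log2 change -1.79, adjusted p = 0.000178), and the difference passed (2.04, adjusted p = 0.00230). Of 15 ATF and CEBP factors 7 rose (46.7%) and 6 fell (40%), against 35.3% and 38.0% of all genes. Their median was 0.27, and -0.17 and -0.58 with hybridisation- and poly-A-control scaling. PPP1R15A, which restores translation under stress, rose 9.88-fold and ATF5 2.90-fold. ATF6, the membrane-bound sensor of the endoplasmic reticulum, fell 7.95-fold, and the CCAAT-binding factor CEBPD 2.63-fold. Among Kruppel-like factors, zinc finger proteins of epithelial identity and growth, KLF4 rose 7.44-fold and KLF12, a gene of 620.0 kb, was at least 8.74-fold lower.

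The array signal of histone genes rose together. Most of the 46 histone genes on the array are replication-dependent genes that encode mRNAs without a poly-A tail. How much of their signal on these 3' arrays came from RNA with a tail was not tested. Of the 46 genes 30 were not bright enough to be tested. Of the 11 over the floor on all controls, 9 rose and 0 fell by limma (0 also at an unadjusted p under 0.05), and a further 5 passed the brightness filter without being over the floor on all controls, so they entered because they were high in Aa. The 4 histone genes that follow were chosen after their values were seen, as genes over the floor on all 6 arrays. H2BC12 read 10.42, 10.37 and 9.80 in controls and 13.15, 13 and 12.67 in Aa (6.70-fold, log2 change 2.74, SE 0.143, adjusted p = 5.56e-07). H1-2, a linker histone, read 5.17, 5.91 and 5.90 and 9.27, 9.48 and 9.68 (14.1-fold, log2 change 3.82, SE 0.186, adjusted p = 4.22e-07). In both genes the groups stood apart by more than 2 units. H2BC5 rose 9.86-fold and H2BC9 9.19-fold, and H2BC4, H3C2 and H2BC21 were at least 14.7-fold, at least 9.24-fold and at least 4.15-fold higher. At 24 h H3C2 read 3.38, 2.86 and 3.21 in Aa, still under the floor.

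Promoters are shown as examples from 4 lists: AP-1, EGR with NR4A and IER, ATF with CEBP, and histone genes. They are those of the 6 risen members in the RefSeq promoter table with the largest rise on the log2 scale as deposited. Their order rests in part on values under the floor: H1-2, at a measured 14.1-fold, is not among them, while FOSB, H3C2 and H2BC21 have bounds of at least 11.1-fold, at least 9.24-fold and at least 4.15-fold. Each run gives the 250 bases before the RefSeq start (build GRCh38.p14), 5' to 3' on the gene's strand, with searched motifs in capitals.
ATF3, chr1:212565157-212565406, plus strand: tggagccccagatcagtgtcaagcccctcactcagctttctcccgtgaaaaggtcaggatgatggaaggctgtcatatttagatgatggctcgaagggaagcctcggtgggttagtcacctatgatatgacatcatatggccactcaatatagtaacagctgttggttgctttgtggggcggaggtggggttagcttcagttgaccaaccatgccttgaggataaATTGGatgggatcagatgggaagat
FOSB, chr19:45467746-45467995, plus strand: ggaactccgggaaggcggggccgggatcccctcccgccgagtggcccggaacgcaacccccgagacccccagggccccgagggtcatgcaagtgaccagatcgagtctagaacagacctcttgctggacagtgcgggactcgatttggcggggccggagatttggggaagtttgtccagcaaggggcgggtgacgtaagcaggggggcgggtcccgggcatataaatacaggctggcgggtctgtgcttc
H2BC4, chr6:26123927-26124176, minus strand: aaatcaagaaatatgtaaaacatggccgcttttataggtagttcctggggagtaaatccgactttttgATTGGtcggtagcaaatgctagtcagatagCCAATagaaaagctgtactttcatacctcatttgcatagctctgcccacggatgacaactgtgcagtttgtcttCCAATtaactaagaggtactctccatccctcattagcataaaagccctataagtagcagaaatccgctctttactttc
H3C2, chr6:26032100-26032349, minus strand: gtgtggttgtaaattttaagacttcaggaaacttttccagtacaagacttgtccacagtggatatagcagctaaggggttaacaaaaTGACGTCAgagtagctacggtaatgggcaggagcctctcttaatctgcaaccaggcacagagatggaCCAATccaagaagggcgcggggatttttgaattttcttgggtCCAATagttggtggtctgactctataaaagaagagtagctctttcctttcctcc
FOS, chr14:75278578-75278827, plus strand: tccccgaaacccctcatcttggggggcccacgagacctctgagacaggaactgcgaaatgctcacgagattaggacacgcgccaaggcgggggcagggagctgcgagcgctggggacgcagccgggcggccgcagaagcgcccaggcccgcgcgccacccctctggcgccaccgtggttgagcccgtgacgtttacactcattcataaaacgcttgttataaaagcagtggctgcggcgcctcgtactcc
H2BC21, chr1:149886683-149886932, minus strand: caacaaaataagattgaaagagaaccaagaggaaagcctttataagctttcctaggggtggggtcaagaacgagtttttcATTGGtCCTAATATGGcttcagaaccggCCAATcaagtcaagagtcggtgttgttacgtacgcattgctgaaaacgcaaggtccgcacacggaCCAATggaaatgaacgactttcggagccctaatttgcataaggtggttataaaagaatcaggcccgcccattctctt
The motifs searched on both strands were TGACGTCA, the full cAMP response element, TGACTCA, the AP-1 site (read from the other strand, TGAGTCA), the E-box CACGTG and CCAAT. The CArG box of serum response factor was searched too.

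The 3 histone promoters each hold CCAAT more than once. H2BC4 has it from 182, 152 and 78 bases before the start, H3C2 from 96 and 54, and H2BC21 from 170, 142 and 77. H3C2 also holds TGACGTCA from 163 to 156 bases before the start, and H2BC21 a CArG box from 164 to 155, next to a CCAAT that ends at 166. Of the 14 risen histone genes, 12 promoters held CCAAT and 3 held TGACGTCA. The shares among histone genes that did not rise were not computed, so these counts do not set the risen ones apart. Among 9243 tested genes with a promoter in the table, 35.9% held CCAAT, 2.98% TGACGTCA, 2.37% TGACTCA, 9.26% CACGTG and 0.974% a CArG box. Over all 27305 promoters of the table the shares were 33.0%, 1.77%, 4.16%, 6.49% and 1.14%. The 1301 genes risen at least 2-fold held TGACGTCA in 4.46% and the 1618 fallen at least 2-fold in 1.73%. FOS and FOSB hold none of these exact letters in the 250 bases, and ATF3 only 1 CCAAT. Only 1 start per gene was searched, so a promoter at any other start of a gene is not covered. A match describes letters and not binding.

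Growth arrest and cell cycle genes moved in several directions. All 8 tested genes of the GADD45 and SERTAD list rose, against 35.3% of all genes. The list also counts GADD45GIP1, a GADD45-interacting protein that is not a member of either family. The largest measured rises were those of SERTAD1, GADD45B (16.2-fold) and GADD45A (7.96-fold). GADD45B and GADD45A encode small stress proteins that slow the cycle. Of the other 5, 4 rose by less than 2-fold and 1 was under the floor in controls. The list's median was 1.60, and 0.70 with low values set to the floor. With hybridisation-control scaling 4 rose, and with poly-A-control scaling 4 rose and 2 fell. CDKN1A, the cyclin kinase inhibitor p21, read 9.50, 8.88 and 9.91 in controls and 11.43, 11.26 and 11.49 in Aa (3.90-fold, log2 change 1.96, SE 0.205, adjusted p = 2.68e-05). MDM2, the ligase that degrades p53 and itself a p53 target, read 8.88, 8.82 and 8.72 and 8.51, 8.15 and 8.13 and fell 1.46-fold (log2 change -0.54, SE 0.111, adjusted p = 0.00182). Of its 3 probe sets 2 were lower. CDKN1A thus stood above its controls and MDM2 below them without overlap. Of 25 p53 targets 13 rose (52%) and 7 fell (28%), against 35.3% and 38.0% of all genes. Their median was 0.24, and -0.20 and -0.60 with hybridisation- and poly-A-control scaling. PMAIP1, the death gene NOXA, rose 8.46-fold, and ZMAT3 and CCNG1 fell 2.75-fold and 2.60-fold. In the BCL2 family BIK rose 5.73-fold and BCL2, the inhibitor of cell death, was at least 12.2-fold lower over 197 kb.

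Of 28 regulators of the G1 to S step 14 rose and 9 fell (median 0.19, negative under both control scalings), with CCND1, cyclin D1, up 5.12-fold and E2F1 up 4.54-fold, and the inhibitor CDKN1B down 3.70-fold. Of 40 DNA replication genes 22 rose and 12 fell (median 0.28, -0.16 and -0.56 with the control scalings), among them MCM10 (4.77-fold) and CDC6 (3.65-fold), which act at replication origins. Of 32 mitosis genes 11 rose and 14 fell, and their median was -0.16 at 48 h and -0.59 at 24 h. The change was more positive at 48 h than at 24 h in 24 of the 32 and more negative in 0 by limma, 0 also at an unadjusted p under 0.05. Over all genes the shares were 15.4% and 23.1%. These list counts were not repeated with the control scalings, on which the direction depends. The poly-A controls were 0.84 higher in Aa at 48 h and differed by -0.02 at 24 h. Scaling to them left 169 positive and 8709 negative differences over the whole array. AURKB, a mitotic kinase, rose 2.51-fold, and MKI67, the proliferation marker Ki-67, 2.23-fold. DLGAP5, a spindle gene, fell 2.09-fold. In repair lists EXO1, a nuclease, rose 4.39-fold and RAD18, a ligase of translesion synthesis, 3.73-fold, and RAD51B, a gene of 863 kb, was at least 2.65-fold lower.

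Genes that build ribosomes rose alongside the array signal of the rRNA precursor, while most ribosomal protein genes did not pass the test. Of 46 genes of ribosome biogenesis and RNA polymerase I 29 rose and 7 fell (median 0.59, and -0.25 with poly-A-control scaling). TAF1C, a subunit of the selectivity factor of polymerase I, rose 4.75-fold, the rRNA methyltransferase NOP2 4.60-fold and the initiation factor RRN3 3.56-fold. TAF1B, of the same selectivity factor, fell 3.06-fold. Of 54 cytosolic ribosomal proteins 10 rose and 3 fell, and 41 did not pass, with a median of 0.06 that is negative under both control scalings. MYC, which is known to drive ribosome biogenesis, read 12.91, 12.58 and 12.64 in controls and 11.55, 11.29 and 11.69 in Aa and fell 2.29-fold (log2 change -1.20, SE 0.0938, adjusted p = 4.72e-06). All 3 Aa arrays were below all controls. In the MYC, MAX and MXD network 6 of 9 genes fell and 2 rose (median -0.89), MAX among the fallen (1.76-fold) and MLXIP among the risen (5.79-fold). The DDX and DHX RNA helicases rose in 32 of 48 cases and fell in 8 (median 0.75, -0.09 with poly-A-control scaling), DDX52 by 5.83-fold and DDX5 by 4.14-fold. The snoRNA host genes SNHG17 and SNHG19 rose 8.28-fold and 5.82-fold.

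Of 38 genes of RNA polymerase II and elongation 16 rose and 9 fell (median 0.19, -0.25 and -0.65 with the control scalings). POLR2A, the largest subunit, rose 4.41-fold and HEXIM1, the inhibitor of the elongation kinase P-TEFb, 3.32-fold. CDK7, the kinase of the initiation factor TFIIH, fell 3.28-fold. Of 348 ZNF genes, many of them KRAB repressors, 161 rose and 70 fell (median 0.23, -0.21 and -0.61 with the control scalings), and their median had been 0.38 at 24 h. The splicing factors SRSF6 and SRSF7 rose 2.94-fold and 2.59-fold, and HNRNPA2B1 fell 2.95-fold. The histone-modifying enzymes KMT2C and KAT6B fell 9.72-fold and 9.20-fold, and the demethylase KDM6B rose 3.09-fold. Of 14 clock genes 10 fell and 1 rose (median -0.91). HLF fell 4.03-fold, BMAL1 3.90-fold and CLOCK 2.00-fold. BMAL1 and CLOCK encode the paired activators of the clock.

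**Figure D3:**
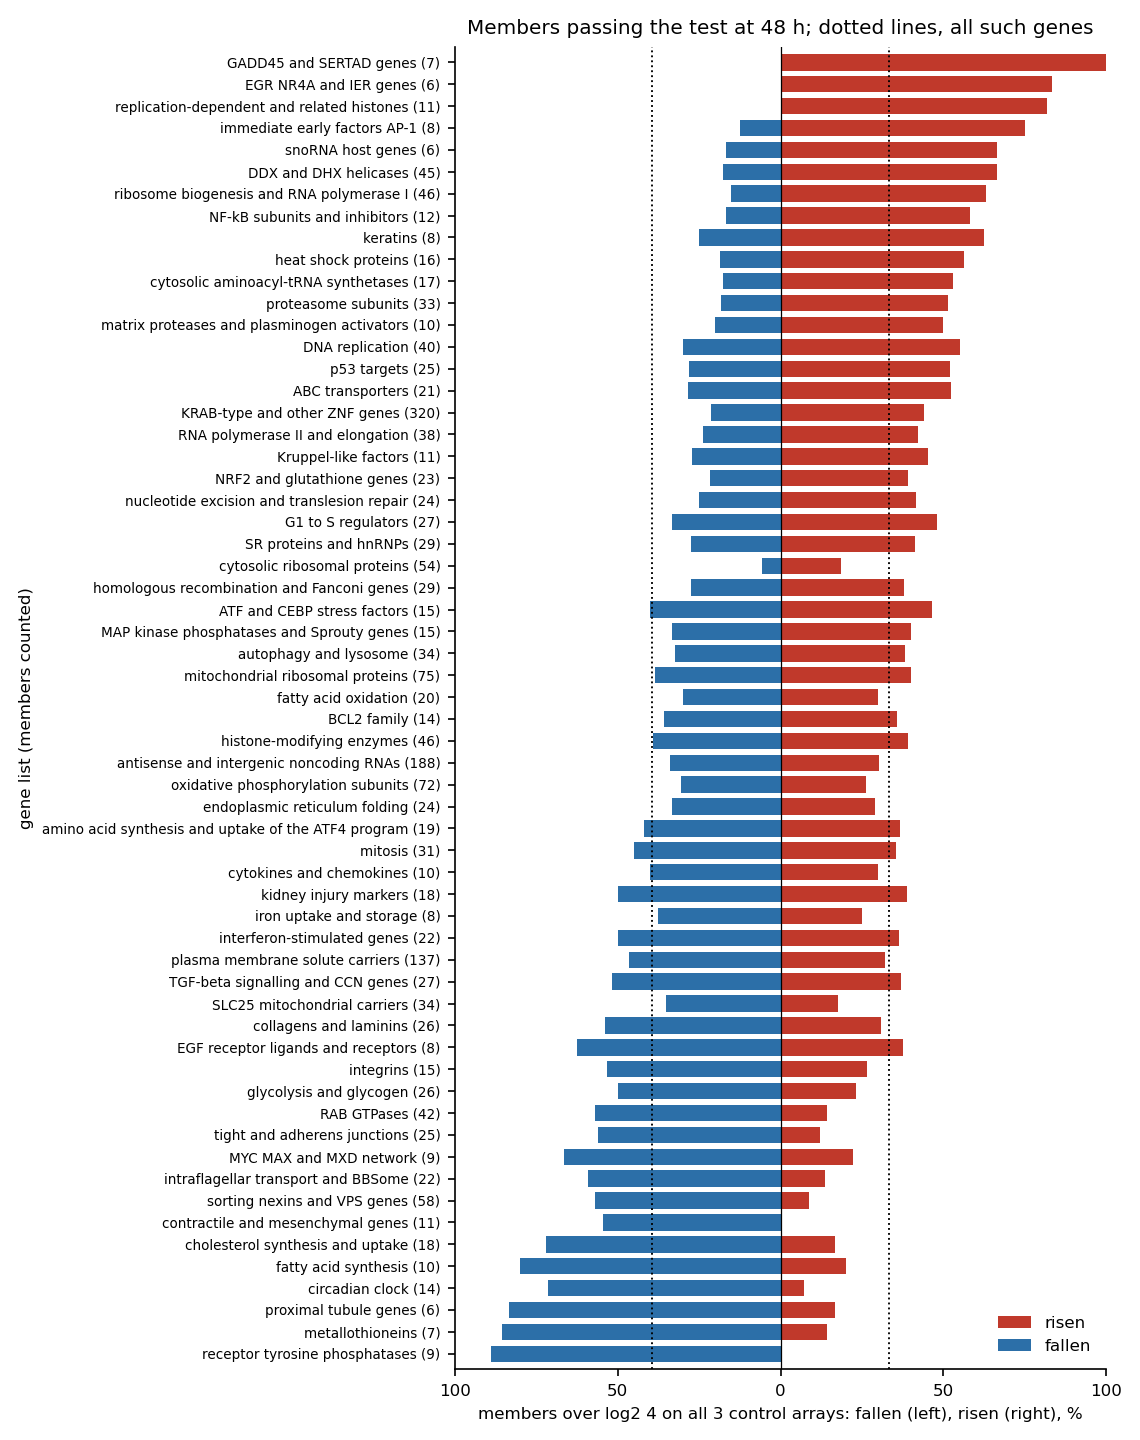
Percent of members that rose (red, right) and fell (blue, left) at 48 h in each gene list with at least 6 members over log2 4 on all 3 control arrays, the number counted in brackets; dotted lines mark the shares over all 10586 such genes (33.5% risen, 39.5% fallen). The GADD45 and SERTAD list, the EGR, NR4A and IER list and the histone list stand at the top. Receptor tyrosine phosphatases and metallothioneins stand at the bottom. EGR1 itself did not pass.

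Secreted signals moved in both directions. IL6, an acute-phase cytokine, read 2.26, 4.44 and 6.15 in controls and 8.82, 9.30 and 10.31 in Aa and was at least 24.5-fold higher (adjusted p = 1.23e-05). IL11, of the same cytokine family, was under the floor in controls and read 8.87, 8.48 and 9.26 in Aa, at least 29.2-fold higher (adjusted p = 3.25e-08). Neither overlapped its controls, though only 1 of the 3 control arrays of IL6 was under the floor. LIF rose 3.70-fold and CXCL2 2.07-fold, while the monocyte chemokine CCL2 was at least 6.85-fold lower and CCL28 fell 3.57-fold. CXCL8 did not pass (log2 change 0.34, adjusted p = 0.113), but passed as a rise without replicate 3 and as a fall with poly-A-control scaling (adjusted p by limma 0.00723 and 0.0125). Of 14 NF-kB subunits and inhibitors 9 rose and 2 fell (median 0.89), the feedback inhibitors TNFAIP3 and NFKBIA by 5.72-fold and 3.09-fold with the subunit RELB at least 4.70-fold higher. With poly-A-control scaling 5 rose and 5 fell, with a median of 0.05. On the deposited scale, 7 of the 12 members over the floor on all controls rose and 2 fell (median 0.69). Of 26 interferon-stimulated genes 9 rose (34.6%) and 11 fell (42.3%), near the 35.3% and 38.0% of all genes. OAS3 and IFI6 rose 5.17-fold and 4.93-fold, and IFI44L was at least 16.4-fold lower.

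Among the ligands of the EGF receptor, HBEGF and EREG (2.89-fold) rose and NRG1 fell 4.97-fold, and the receptors EGFR, ERBB2 and ERBB3 fell 2.14-fold, 1.54-fold and at least 1.40-fold. The phosphatases that switch off MAP kinases rose for DUSP10 (6.10-fold) and DUSP8 (3.42-fold), while DUSP6 fell 1.71-fold. Of 28 genes of TGF-beta signalling and the CCN family 10 rose (35.7%) and 14 fell (50%), against 35.3% and 38.0% of all genes (median -0.14). Among them SMAD3 rose 3.81-fold, the activin subunit INHBA 3.97-fold and CCN2 3.06-fold, and the receptor TGFBR2 fell 2.84-fold.

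Genes of cholesterol and fatty acid synthesis and metallothioneins fell more often than they rose, against 38.0% fallen and 35.3% risen over all genes. Of 18 genes of cholesterol synthesis and uptake 13 fell and 3 rose (median -0.62). INSIG1, the sterol sensor of the endoplasmic reticulum, read 12.79, 12.68 and 12.69 in controls and 10.48, 10.13 and 10.39 in Aa (5.22-fold lower, log2 change -2.38, SE 0.130, adjusted p = 7.07e-07). The sterol reductase TM7SF2 fell 9.36-fold and the mevalonate pathway enzyme HMGCS1 3.21-fold. Of 10 genes of fatty acid synthesis 8 fell and 2 rose (median -0.74). ELOVL6, which lengthens fatty acids, fell 9.84-fold and SREBF1, the regulator of the pathway, 2.69-fold. These 10 genes span a median of 72.6 kb, and 4 of them are in the longest 10% of genes by span. The cholesterol list spans a median of 19.3 kb with 0 genes there. The part of span in these falls was not tested. Of 20 genes of fatty acid oxidation 6 rose and 6 fell (median -0.07). Of 7 metallothioneins, small proteins that bind zinc and copper, 6 fell and 1 rose (median -1). MT1X read 13.63, 13.46 and 13.71 and 12.69, 12.39 and 12.41 (2.14-fold lower, log2 change -1.10, SE 0.0851, adjusted p = 4.42e-06), and MT2A fell 2.01-fold. At 24 h the metallothionein median had been -0.31, and the change was more negative at 48 h in 6 of 7. Of 72 subunits of oxidative phosphorylation 19 rose and 22 fell (median -0.03). Of 28 glycolysis and glycogen genes 8 rose and 13 fell, with the muscle phosphorylase PYGM at least 28.4-fold and the aldolase ALDOC at least 29.4-fold higher and the branching enzyme GBE1 6.52-fold lower.

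Antioxidant genes moved in both directions. Of 24 NRF2 and glutathione genes 10 rose (41.7%) and 5 fell (20.8%), against 35.3% and 38.0% of all genes. Their median was 0.20, and -0.24 and -0.64 with hybridisation- and poly-A-control scaling. With the latter 3 rose and 17 fell. On the deposited scale the 48 h change was more negative than at 24 h in 10 genes and more positive in 2. Over all genes these shares were 23.1% and 15.4%. HMOX1, heme oxygenase 1, read 7.92, 7.96 and 8.34 in controls and 7.91, 7.82 and 8.10 in Aa at 48 h (log2 change -0.13, adjusted p = 0.334), after 8.10, 8.14 and 8.49 and 9.27, 8.84 and 9.68 at 24 h. The groups overlapped at 48 h and stood apart at 24 h, and the difference passed (-1.15, adjusted p = 0.00136). SLC7A11, the cystine importer that feeds glutathione, fell 4.48-fold after no passing change at 24 h (log2 change 0.23). TIPARP, a target of the aryl hydrocarbon receptor, fell 7.78-fold, and CYP1B1 rose 2.97-fold. In the ATF4 program of amino acid supply 7 of 19 rose and 8 fell, with STC2 up 11-fold and SLC7A5 4.31-fold, and DDIT4 down 5.76-fold. Of 16 heat shock proteins 9 rose and 3 fell (median 0.26, -0.18 and -0.58 with the control scalings), HSPA2 by 2.48-fold. Of 33 proteasome subunits 17 rose and 6 fell, all by less than 2-fold (median 0.22). With hybridisation-control scaling 2 rose and 14 fell (median -0.22), and with poly-A-control scaling 0 rose and 28 fell (median -0.62).

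Proximal tubule genes moved in both directions. Of 30 on the array 9 were tested, of which 4 rose and 5 fell. The 6 that were over the floor on all controls held the 5 falls and 1 rise, while the other 3 risen genes passed the filter without being over the floor on all controls. On all 3 Aa arrays 8 of the 30 were over the floor. SLC4A4, the basolateral sodium bicarbonate cotransporter, read 12.50, 12.81 and 11.68 in controls and 9.61, 9.63 and 8.59 in Aa (8.32-fold lower, log2 change -3.06, SE 0.123, adjusted p = 1.77e-07). SLC3A1, a subunit of the cystine transporter of the brush border, fell 11.3-fold, SLC17A3 4.83-fold and the scaffold gene PDZK1 2.03-fold. SLC7A9, the partner of SLC3A1, and CYP27B1, which activates vitamin D, were under the floor in controls and at least 6.37-fold and at least 11.2-fold higher. The summed level of the 30 tubule markers was 13.34 to 14.05 in controls and 12.69 to 13.11 in Aa (log2). In the same arrays the 3' excess was higher and its part was not tested.

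Of 18 kidney injury markers 7 rose (38.9%) and 9 fell (50%), against 35.3% and 38.0% of all genes. HAVCR1, kidney injury molecule 1, read 11.49, 11.69 and 11.75 in controls and 10.53, 10.57 and 10.66 in Aa (2.07-fold lower, log2 change -1.05, SE 0.0697, adjusted p = 1.90e-06). SOX9, a factor of tubule repair, read 7.58, 6.70 and 6.58 and 9.84, 9.30 and 9.52 (6.07-fold higher, log2 change 2.60, SE 0.284, adjusted p = 3.50e-05), and the adhesion receptor CD44 rose 2.21-fold. HAVCR1 lay below and SOX9 above all of its controls. KRT20, VCAM1 (at least 5.39-fold) and CCL2 were lower. KRT7 and KRT80 rose 2.52-fold and 3.50-fold, while KRT19 fell 2.58-fold.

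Of 25 junction genes 14 fell and 3 rose (median -0.49), the cadherin CDH6 by 6.74-fold and the claudins CLDN2 and CLDN16 by 4.42-fold and 7.82-fold. Snail factors, repressors of epithelial junction genes, were higher: SNAI1 by at least 17.9-fold and SNAI2 by at least 4.07-fold, and TAGLN, an actin-binding protein, by at least 11.9-fold. Vimentin, VIM, fell 1.46-fold, and the 11 contractile and mesenchymal genes over the floor on all controls had 6 falls and 0 rises by limma (1 rise at an unadjusted p under 0.05). The plasminogen activator receptor PLAUR rose 4.74-fold and the collagenase MMP1 at least 6.87-fold. Collagens and laminins fell in 14 of 27 cases and rose in 8, COL4A5 being at least 2.81-fold lower and LAMB2 3.28-fold higher. Of the reference transcripts, ACTB read 15.58, 15.38 and 15.65 and 15.37, 15.08 and 15.28 (log2 change -0.29, SE 0.0737, adjusted p = 0.00623), and GAPDH did not pass (log2 change -0.08, adjusted p = 0.317; 0.03 with quantile normalisation). With hybridisation- and poly-A-control scaling GAPDH passed as a fall (log2 change -0.52 and -0.92, adjusted p by limma 0.00268 and 7.98e-05). The ACTB call is lost without replicate 2 and without the replicate block (adjusted p by limma 0.0595 and 0.0634), with a log2 change of -0.29 in both.

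Genes of vesicle traffic fell more often than they rose, against 38.0% fallen and 35.3% risen over all genes. Of 43 RAB GTPases 25 fell (58.1%) and 6 rose (median -0.39), RAB38 by 11.6-fold and RAB27B by 7.03-fold, both of which move secretory and lysosome-related organelles. Of 58 sorting nexins and VPS genes 33 fell (56.9%) and 5 rose (median -0.37), with VPS13B at least 17.2-fold and SNX29 at least 23.5-fold lower, and VPS11 3.42-fold higher. Of 22 genes of intraflagellar transport and the BBSome, which serve the primary cilium, 13 fell (59.1%) and 3 rose (median -0.56). Autophagy and lysosome genes did not share this lean, with 13 of 34 risen (38.2%) and 11 fallen (32.4%). Their median of 0.05 was negative under both control scalings. In that list ATG10 and ATG7 were at least 9.26-fold and at least 6.69-fold lower, and MCOLN1, a lysosomal calcium channel, rose 5.57-fold. The sorting nexin and VPS genes span a median of 49.7 kb, the ciliary genes 50.9 kb and the RAB genes 35.3 kb, against 29.7 kb for all tested genes.

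The 24 h arrays, which share no control sample with those of 48 h, show which changes were late. Of the 3944 genes risen at 48 h 69.5% had risen at 24 h, 27.8% had not passed and 2.69% had fallen. Of the 4249 fallen 63.2% had fallen at 24 h, 32.3% had not passed and 4.52% had risen. The changes of the 2 times correlated at r = 0.862 (Spearman's rho 0.807) across genes, which are not independent replicates. Where both times passed in 1 direction, the 48 h change was the larger in 3758 of 5426 genes (69.3%). The difference itself passed in 4314 genes, 1726 more positive at 48 h (15.4%) and 2588 more negative (23.1%). Which direction was the more frequent depended on the scaling: with equal array medians 2214 were positive and 2090 negative, and with poly-A-control scaling 169 and 8709. The count of 4314 was 2562 without the 4 arrays of replicate 1, 1318 without those of replicate 2 and 2179 without the replicate number in the model. Passing changes in opposite directions were found in 298 genes. A total of 701 genes had risen and 458 had fallen at 24 h without passing at 48 h.

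**Figure D4:**
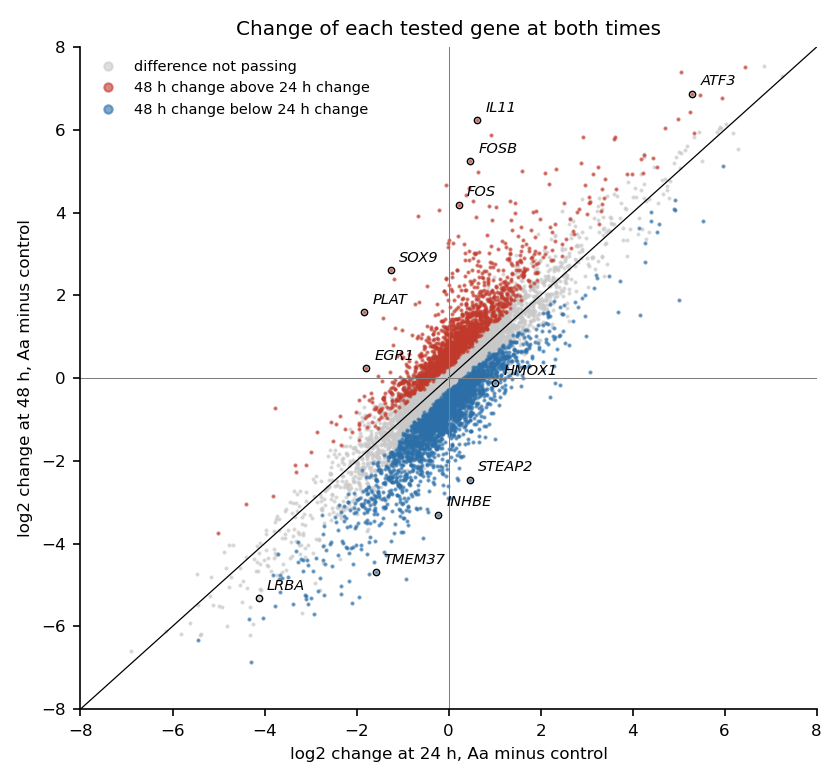
Log2 change (Aa minus control) of each of 11184 tested genes at 24 h (horizontal axis) and 48 h (vertical axis); colour marks genes whose changes differ between the times, and the diagonal marks equal change. FOS, FOSB and IL11 lie near 0 at 24 h and above 4 at 48 h, and TMEM37, INHBE and STEAP2 lie below the diagonal.

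Genes measured on all 12 arrays with the most positive differences were SLN, FOS, SOX9, LINC00973, PLAT and RASD1. SOX9 read 8.19, 7.84 and 7.92 in controls and 7.41, 7.06 and 5.73 in Aa at 24 h, and fell then (log2 change -1.25, adjusted p = 0.00435). It was thus below control at 24 h and above it at 48 h, a difference of 3.86 (SE 0.402, adjusted p = 0.000481). PLAT, tissue plasminogen activator, read 6.40, 6.17 and 8.27 and 4.56, 4.73 and 6.03 at 24 h and 4.63, 4.48 and 7.28 and 7.15, 6.30 and 7.73 at 48 h. Its control replicate 3 was the highest at both times, so the groups overlapped at 48 h, but all 3 numbered pairs moved down at 24 h and up at 48 h (difference 3.44, adjusted p = 0.00123; 0.0524 with no replicate block). SLN, the sarcoplasmic calcium pump regulator sarcolipin, read 8.58, 8.01 and 9.07 and 8.01, 7.39 and 8.28 at 24 h and 5.02, 4.23 and 7.55 and 9.34, 9.06 and 10.16 at 48 h, so that at 48 h its controls were lower than at 24 h and its Aa arrays higher. RASD1, a dexamethasone-induced RAS protein, rose 14.9-fold at 48 h and did not pass at 24 h (log2 change 0.59, adjusted p = 0.0924).

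The most negative differences were those of TMEM37, INHBE, STEAP2, GPC6, SIM1 and CYS1. INHBE, an inhibin subunit, read 6.50, 6.97 and 5.65 in controls and 6.16, 6.81 and 5.46 in Aa at 24 h, and 8.57, 8.95 and 7.55 and 5.20, 5.72 and 4.24 at 48 h. The controls were higher at 48 h and the Aa arrays lower, and the pairs moved so evenly that the difference of -3.07 has an SE of 0.111 (adjusted p = 9.74e-06). STEAP2, a metalloreductase, read 6.83, 6.69 and 5.55 and 6.67, 7.31 and 6.48 at 24 h and 7.34, 7.35 and 6.56 and 5.15, 4.09 and 4.64 at 48 h, so that it overlapped control at 24 h and lay below it at 48 h. SIM1 of tubule development and the ciliary gene CYS1 fell 9.51-fold and 13.1-fold at 48 h, while at 24 h SIM1 did not pass (log2 change -0.44, adjusted p = 0.252) and CYS1 fell by less (log2 change -0.99, adjusted p = 0.0222). Without replicate 2 the differences of SIM1 and CYS1 miss the threshold (adjusted p by limma 0.0537 and 0.0543).

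**Figure D5:**
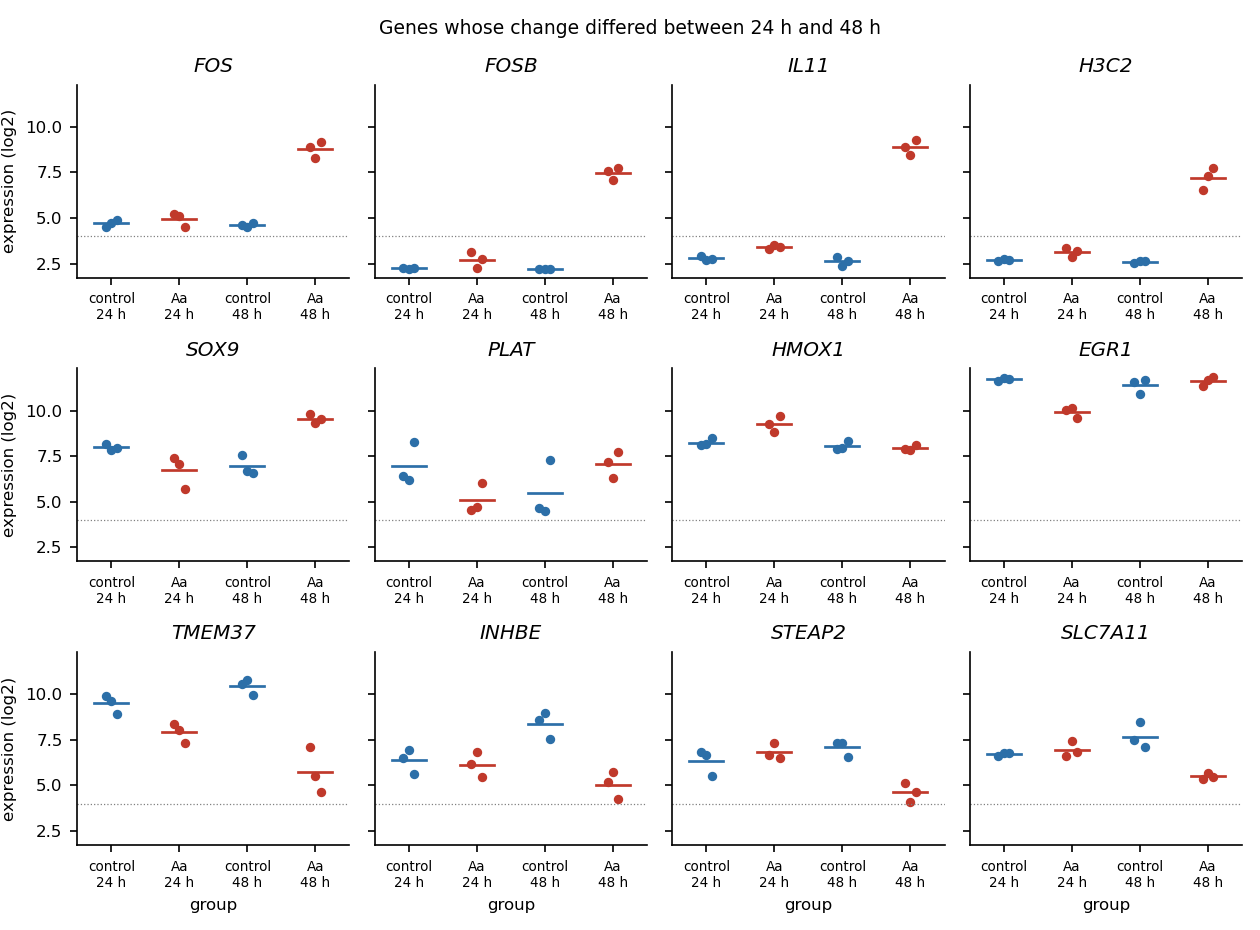
Expression (log2, vertical axis) of 12 genes in the 4 groups, control (blue) and Aa (red) at 24 h and 48 h; points are arrays, lines are group means of 3 and the dotted line is the floor of log2 4. FOS, FOSB, IL11 and H3C2 are high in Aa at 48 h, SOX9 and PLAT change sides between the times, and HMOX1 and EGR1 pass the test at 24 h and not at 48 h.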

How the data were processed

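The 12 samples are total RNA on Affymetrix 3' expression arrays, 3 per group. The authors deposited log2 expression per probe set, made with GCRMA (version not given) per the submitters' processing notes. As a method GCRMA corrects background by probe sequence and quantile-normalises, and so leaves little of a change shared by most genes. Of 54675 probe sets 62 are controls, and 41091 name 1 gene in the platform annotation, 1801 several and 11721 none. Of these, 41037 matched RefSeq. Each gene was represented by its brightest probe set over the 12 arrays, and genes over log2 4 on at least 3 arrays were kept.

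Group means with the replicate number as a block were fitted in limma 3.58.1 (R 4.3.3) over all 12 arrays (6 residual and 2.72 prior degrees of freedom) and p-values were adjusted by Benjamini-Hochberg over 11184 genes. The fit was tested on simulated data. Deviations from group means correlated at 0.279 to 0.577 between same-numbered arrays of different groups (18 pairs) and at -0.371 to -0.0286 between different numbers (36 pairs), so the numbers pair the samples. The number of arrays limits the precision, and p-values measure the spread between these samples, which may be technical.

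Alternatives left out the block, the 24 h arrays, the filter, each replicate or each array, or changed the filter, scaling, probe set summary or variance model. Scaling to the poly-A controls was chosen after seeing the data. Genes named are the 10 largest measured rises and falls without overlap, 6 each from or to background, 6 each of the largest differences between times, the 3 largest rises and falls in each list, any member of a list under 15 genes, 4 of the highest-expressed genes and preset reference genes. The members and the lists were chosen with earlier results of these data known.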

Additional observations from a re-analysis of the deposited data

Results flagged for a closer look

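The 48 h change differed from the 24 h change in 4314 genes by limma's test of the difference. Among genes over the floor on all 12 arrays, the most positive differences (48 h minus 24 h, log2) were 4.58 for SLN (SE 0.616), 3.97 for FOS (SE 0.338), 3.86 for SOX9, 3.58 for LINC00973, 3.44 for PLAT and 3.31 for RASD1. The most negative were -3.11 for TMEM37 (SE 0.441), -3.07 for INHBE, -2.92 for STEAP2, -2.91 for GPC6, -2.81 for SIM1 and -2.72 for CYS1. Each of these 12 passed the adjusted threshold, with the adjusted p between 9.74e-06 and 0.00374.

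Control probe sets, which enter no gene comparison, read higher in Aa than in control cultures at 48 h. The hybridisation controls were 0.44 higher (log2), the added poly-A transcripts 0.84 higher and the 3' excess of ACTB and GAPDH 0.22 higher. Each was higher in all 3 numbered pairs and without overlap of the groups. At 24 h the hybridisation controls were 0.28 higher, also without overlap, while the poly-A controls differed by -0.02 and overlapped. Groups of 3 arrays were not tested for outlying arrays.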

How the results depend on the processing

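Of the 4 scalings tried, those to control transcripts mattered most. With hybridisation-control scaling 2093 genes rose, 995 of them at least 2-fold, 3121 fell at least 2-fold and 762 had a more positive change at 48 h than at 24 h. With poly-A-control scaling, chosen after seeing the data, 1263 rose and 8120 fell, 658 and 4817 of them at least 2-fold. It gave 8878 differences between the times, 169 positive and 8709 negative (92 and 4985 at least 2-fold). Without the replicate block 7210 genes were called at 48 h, and 2179 differences between the times, 761 positive and 1418 negative. Leaving out each replicate or array in turn left between 1318 and 4178 differences, 547 to 1607 positive and 771 to 2612 negative, with 440 to 999 negative by at least 2-fold. The lowest counts came without replicate 2, in a fit with fewer samples. All other counts over the whole array stayed within 1.5 times of the reported ones. Of 128 counts of risen or fallen list members, 62 moved by more than 1.5 times with hybridisation-control scaling, 100 with poly-A-control scaling, 17 without replicate 2 and 11 or fewer under each of the rest.

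Of the 209 genes named, 206 kept their direction at 48 h under each alternative that could be computed. CXCL8 was -0.10 and -0.50 with hybridisation- and poly-A-control scaling. EGR1 was -0.195 and -0.596 with these, both genes passing as falls with the latter (adjusted p by limma 0.0125 and 0.0236). For EGR1 leaving out replicates or arrays gave -0.0308 (without replicate 2) to 0.487 (without replicate 1), with -0.0594 without control replicate 2. GAPDH was 0.0341 with quantile normalisation and passed as a fall under both control scalings (-0.521 and -0.921). The stricter filter leaves out 6 of the 209. HMOX1 passed as a fall under both control scalings (-0.57 and -0.97), and CD44, CXCL2 and MKI67 no longer passed with poly-A-control scaling. PLAT at 48 h did not pass without the replicate block (adjusted p by limma 0.0977), nor did ERBB3 with the 48 h arrays alone (0.0535). The causes were not tested. Values under the floor carry no order, which limits genes near background.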

Other observations

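Of 152 plasma membrane solute carriers 54 rose and 64 fell (median -0.05), shares of 35.5% and 42.1% that are near the 35.3% and 38.0% of all genes, with the fatty acid transport proteins SLC27A3 at least 23.3-fold higher and SLC27A2 at least 27-fold lower. Of 36 mitochondrial carriers of the SLC25 family 8 rose and 12 fell, SLC25A25, a calcium-regulated ATP and phosphate carrier, rising 8.65-fold and the S-adenosylmethionine carrier SLC25A26 falling 5.82-fold. Of 21 ABC transporters 11 rose and 6 fell (median 0.35, -0.09 and -0.49 with hybridisation- and poly-A-control scaling), the export pump ABCC4 falling 2.60-fold. Among 8 genes of iron uptake and storage 2 rose and 3 fell (median -0.06): the transferrin receptor TFRC rose 2.45-fold, the importer SLC11A2 fell 5.26-fold and the exporter ferroportin, SLC40A1, was at least 11.9-fold lower.

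Transcribed pseudogenes rose more often than they fell. Of 126 transcribed pseudogenes 70 rose and 19 fell, with a median log2 change of 0.49, against 3743 rises and 4132 falls among 10696 protein-coding genes with a median of -0.04. The pseudogene median shifts by -0.44 and -0.84 with the hybridisation- and poly-A-control scalings, as all genes do, and is negative with the latter. Of the 100 over the floor on all controls 50 rose and 17 fell (median 0.33), and pseudogenes can share signal with their parent genes. Of 333 long noncoding RNAs 121 rose and 90 fell (median 0.07). Of the 265 over the floor on all controls 76 rose and 82 fell (median -0.03). The antisense RNAs PYCARD-AS1 and MATN1-AS1 were at least 11.5-fold and at least 15-fold higher. Mitochondrial ribosomal proteins rose in 30 of 75 cases and fell in 29, MRPS28 falling 3.49-fold and MRPL49 rising 2.60-fold.

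Among the 10% of genes with the longest span, 50 rose, among them NEB, the gene of the muscle protein nebulin (at least 12.1-fold higher), LEKR1 (at least 2.98-fold) and the olfactory G protein gene GNAL (8.05-fold). These were chosen after their values were seen.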
